A study of Homo sapiens with 8 samples.

Results

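Kidney developmental transcription factors, the DNA-binding regulators and coactivators that set up the early kidney, were followed in HEK293T cells carrying CRISPR-based activators. The set was defined by gene symbol, with earlier results of these data known, and named 8 genes, *PAX2*, *PAX8*, *LHX1*, *EYA1*, *SALL1*, *SALL2*, *WT1* and *OSR1*. Of these, 7 were among the 19770 genes measured, and *PAX8* is not analysed here. Of the 7, 6 passed the filter on low values of at least 1 CPM, a read count scaled to library size, in at least 2 libraries, and *OSR1* did not. HEK293T is an established line made from human embryonic kidney cells.

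RNA-seq was performed on 8 libraries, 2 for each of 4 groups. All groups, the control included, received pooled gRNAs against the promoter of the fetal globin genes *HBG1* and *HBG2*, and RNA was taken 72 h after plasmid transfection. Control cells received dCas9 and MCP-mCherry, which carries no activation domain, and CRISPR-DREAM (DREAM) cells received dCas9 and MCP-MSN, a fusion of activation domains from human transcription factors. SAM cells received dCas9-VP64 and MCP-p65-HSF1, and dCas9-VPR cells received dCas9 fused directly to VP64, p65 and Rta. The gRNAs carried MS2 loops, which MCP binds, in every group except dCas9-VPR, so that dCas9-VPR differed from the control in its gRNAs as well as in its effector. The RNA is of whole wells, and a change in the share of cells and a change in RNA per cell cannot be told apart.

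In the embryo, the kidney forms from intermediate mesoderm, which is marked by *OSR1*, *LHX1*, *PAX2* and *PAX8*. A nephron progenitor pool then gathers around the ureteric bud, kept by *EYA1*, *SIX2*, *SALL1*, *WT1* and the *HOX11* genes, and signals to the bud through *GDNF* and its receptor *RET*. *WT1* is later held in podocytes, the filtering cells of the glomerulus, and *PAX2* and *LHX1* act again when the nephron epithelium forms.

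The promoters of the 3 members called higher with SAM are shown first. For *PAX2* that call was lost with median-of-ratios scaling. Each is a window of 300 bases that starts 250 bases before the RefSeq transcription start (GRCh38.p14), printed 5′ to 3′ on the strand of the gene with CpG dinucleotides in capitals. The *PAX2* window is chr10:100735146-100735445 on the plus strand, the *SALL2* window is chr14:21537072-21537371 on the minus strand and the *WT1* window is chr11:32435490-32435789 on the minus strand. The RefSeq table held 2 windows for *PAX2*, 4 for *WT1* and 1 for *SALL2*, of which the most upstream is printed. *LHX1*, *SALL1* and *OSR1* had no window, and *EYA1* was not looked up.
PAX2: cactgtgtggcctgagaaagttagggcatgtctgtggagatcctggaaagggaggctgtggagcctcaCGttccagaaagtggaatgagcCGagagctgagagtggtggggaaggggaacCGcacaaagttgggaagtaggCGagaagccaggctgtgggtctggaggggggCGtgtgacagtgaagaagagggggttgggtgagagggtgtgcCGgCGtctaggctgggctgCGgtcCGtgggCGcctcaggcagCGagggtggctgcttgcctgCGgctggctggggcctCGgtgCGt
SALL2: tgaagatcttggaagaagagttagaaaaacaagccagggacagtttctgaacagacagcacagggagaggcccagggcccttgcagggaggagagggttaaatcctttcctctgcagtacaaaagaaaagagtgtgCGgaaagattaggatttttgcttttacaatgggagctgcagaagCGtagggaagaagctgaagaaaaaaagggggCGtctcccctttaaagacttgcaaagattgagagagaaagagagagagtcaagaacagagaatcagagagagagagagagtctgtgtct
WT1: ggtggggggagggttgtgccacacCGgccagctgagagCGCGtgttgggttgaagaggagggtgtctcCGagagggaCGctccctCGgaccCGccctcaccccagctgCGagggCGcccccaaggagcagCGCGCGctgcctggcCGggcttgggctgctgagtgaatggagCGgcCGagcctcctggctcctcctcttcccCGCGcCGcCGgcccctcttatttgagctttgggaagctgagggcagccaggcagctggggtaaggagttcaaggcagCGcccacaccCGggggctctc
The 3 windows differ in CpG content. The *WT1* window holds 21 CpG and is 70% G or C, the *PAX2* window holds 14 CpG, and the *SALL2* window holds 3 CpG and is 46% G or C, against a median of 14 CpG with quartiles of 4 and 28 over 35116 windows. Searched on both strands, a GC box (GGGCGG or CCGCCC) was found once in the *WT1* window and in neither other, and 45.0% of all windows held one. A CCAAT box (CCAAT or ATTGG) and a TATA box (TATAAA or TTTATA) were found in none of the 3 and in 34.6% and 11.5% of all windows. These letter matches describe the windows and locate no binding site.

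The targeted genes were checked first. *HBG2* stood at 1.29 and 0.838 CPM in control cells, 2187 and 2874 CPM with DREAM, 707 and 860 CPM with SAM and 218 and 201.3 CPM with dCas9-VPR. *HBG1*, its near-identical neighbour whose reads may be shared with it, was listed at 0 in both control libraries and between 0.385 and 12.7 CPM in the 6 others. Estimated depth was 28.4 to 35.1 M reads per library, at which 3 reads are worth 0.0854 to 0.106 CPM. No library stood apart from its group's label by these genes.

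All 7 members were read in every library above the value of 3 reads. Per kb of exon, *SALL2* was the most abundant member, at a mean of 9.13 CPM per kb (range over the 8 libraries 6.47 to 11.8). *SALL1* followed at 1.69 (1.27 to 1.96) and *EYA1* at 0.958 CPM per kb (0.733 to 1.15). *WT1* stood at 0.543 (0.401 to 0.721), *LHX1* at 0.329 (0.226 to 0.457) and *PAX2* at 0.165 CPM per kb (0.121 to 0.264). *OSR1* was last, at 0.0674 CPM per kb (0.0271 to 0.113). The ranges of *WT1* and *LHX1* overlapped, as did those of *LHX1* and *PAX2*, and every other pair of neighbours in this order was separate. The order rests on exon lengths of a later Gencode release than the one the authors used.

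**Figure D1:**
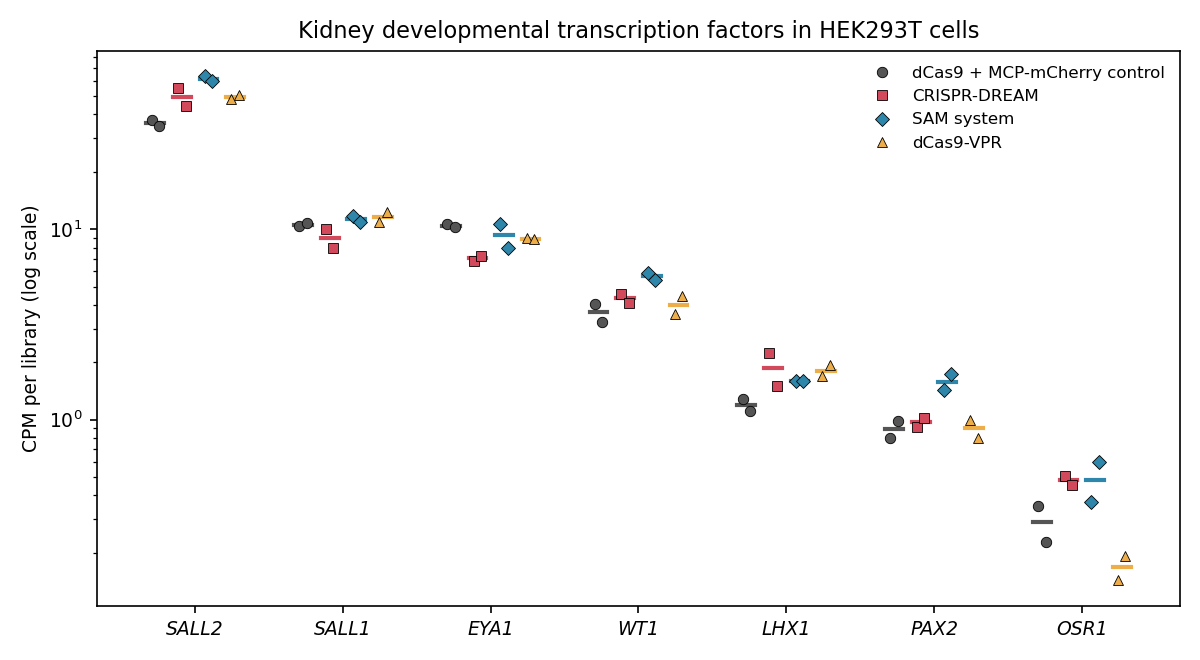
CPM of each measured member in every library on a log axis, with 2 points and a mean bar for each of the 4 groups. *SALL2* lies between 34.8 and 63.7 CPM, with every activator library above both control libraries, and *OSR1* lies between 0.143 and 0.597 CPM.

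*SALL2* was called higher than the control in all 3 systems, and its difference with SAM was the largest of the 6 tested members on the log2(CPM + 0.5) scale. It encodes a zinc-finger repressor of the spalt family and lies on chr14:21521080-21537217 (hg38, minus strand). Control cells held 37.4 and 34.8 CPM of it, against 54.8 and 44.1 CPM with DREAM, 63.7 and 59.6 CPM with SAM and 48.1 and 50.5 CPM with dCas9-VPR. All 6 activator libraries were above both control libraries, and the SAM libraries were above all others. Relative to the control it rose with SAM by 0.76 on the log2(CPM + 0.5) scale (SE 0.10, adjusted p = 0.0003, limma). It rose by 0.44 with DREAM (SE 0.10, adjusted p = 0.0070) and by 0.44 with dCas9-VPR (SE 0.10, adjusted p = 0.0124). In ratios of mean CPM these were 1.71, 1.37 and 1.37. The call with SAM held when any 1 library was left out. The call with DREAM was lost without control library 2 (0.39, adjusted p = 0.0604), and that with dCas9-VPR without control library 2 (0.39, adjusted p = 0.108) or without dCas9-VPR library 1 (0.48, adjusted p = 0.0732) or 2 (0.41, adjusted p = 0.0933).

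*WT1* rose with SAM. It encodes the zinc-finger regulator of podocytes and nephron progenitors whose loss gives Wilms tumour, and it lies on chr11:32387775-32435565 (minus strand), 27.14 Mb from *HBG1* on the same chromosome. Control cells held 4.05 and 3.26 CPM of it, against 4.56 and 4.11 CPM with DREAM, 5.86 and 5.43 CPM with SAM and 3.58 and 4.46 CPM with dCas9-VPR. Both SAM libraries were above the other 6, and the dCas9-VPR libraries overlapped the control. The difference of SAM from the control was 0.57 (SE 0.15, adjusted p = 0.0115), a ratio of 1.54. It was lost without control library 2 (0.43, adjusted p = 0.0968) or SAM library 1 (0.52, adjusted p = 0.0721). With DREAM and dCas9-VPR the differences were 0.22 (95% interval −0.11 to 0.56) and 0.12 (−0.21 to 0.45), neither past the threshold.

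*PAX2*, a paired-box factor of the ureteric bud and the forming nephron, was near 1 CPM. It lies on chr10:100735603-100829945 (plus strand), past the end of its printed window, which was placed on a more upstream RefSeq start. Control cells held 0.798 and 0.978 CPM of it, against 0.917 and 1.02 CPM with DREAM, 1.43 and 1.73 CPM with SAM and 1.00 and 0.802 CPM with dCas9-VPR. Both SAM libraries were above the other 6, which overlapped one another. Neither control library reached 1 CPM, so *PAX2* passed the filter only through activator libraries. *PAX2* rose with SAM by 0.58 (SE 0.18, adjusted p = 0.0246), a ratio of 1.78. The call did not hold without any 1 of control library 1 (0.49, adjusted p = 0.117), control library 2 (0.68, adjusted p = 0.0517), SAM library 1 (0.69, adjusted p = 0.0501) or SAM library 2 (0.48, adjusted p = 0.140), nor with median-of-ratios scaling (0.46, adjusted p = 0.0755). With DREAM the difference was 0.08 (95% interval −0.32 to 0.49) and with dCas9-VPR 0.01 (−0.39 to 0.42).

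*EYA1* was the member that fell with DREAM. It encodes a phosphatase and coactivator that works with DNA-binding partners in nephron progenitors, and it lies on chr8:71197433-71592026 (minus strand). Control cells held 10.6 and 10.3 CPM of it, against 6.83 and 7.27 CPM with DREAM, 10.7 and 7.99 CPM with SAM and 8.95 and 8.86 CPM with dCas9-VPR. The DREAM libraries were below the other 6, and the 2 SAM libraries stood on either side of the control. *EYA1* fell by 0.53 on the log2 scale with DREAM (SE 0.13, adjusted p = 0.0126), to 0.676 of the control mean. This call was lost without control library 1 (−0.51, adjusted p = 0.0620) or control library 2 (−0.56, adjusted p = 0.0581). The differences of −0.17 with SAM (95% interval −0.46 to 0.13) and −0.22 with dCas9-VPR (−0.51 to 0.07) did not pass the threshold.

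*SALL1*, the spalt repressor that recruits the NuRD complex and keeps nephron progenitors, passed the threshold against the control in no system. It lies on chr16:51135975-51151368 (minus strand). Control cells held 10.4 and 10.8 CPM of it, against 10.0 and 8.01 CPM with DREAM, 11.7 and 10.9 CPM with SAM and 11.0 and 12.3 CPM with dCas9-VPR. The DREAM libraries were the lowest of the 8. The differences were −0.23 (95% interval −0.50 to 0.04), 0.09 (−0.17 to 0.36) and 0.13 (−0.14 to 0.40) for DREAM, SAM and dCas9-VPR, and the SAM value was −0.08 with median-of-ratios scaling. *SALL1* passed as lower with DREAM when DREAM library 1 was left out (−0.38, adjusted p = 0.0491).

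*LHX1*, a LIM-homeodomain factor of the intermediate mesoderm and the nephric duct, was higher in every activator library than in both control libraries without passing the threshold. It lies on chr17:36936785-36944613 (plus strand). Control cells held 1.28 and 1.11 CPM of it, against 2.25 and 1.51 CPM with DREAM, 1.60 and 1.59 CPM with SAM and 1.69 and 1.93 CPM with dCas9-VPR. The differences were 0.48 with DREAM (adjusted p = 0.0811), 0.31 with SAM (adjusted p = 0.197) and 0.45 with dCas9-VPR (adjusted p = 0.118). The first passed without DREAM library 2, at 0.70, and with replicate number as a block (adjusted p = 0.0419). With that block 6756 of 15122 genes passed the FDR for DREAM relative to the control, and 4236 without it.

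*OSR1*, a zinc-finger factor of the earliest kidney precursors, lies on chr2:19351485-19358624 (minus strand) and was under 1 CPM in all 8 libraries. Control cells held 0.351 and 0.228 CPM of it, against 0.506 and 0.457 CPM with DREAM, 0.372 and 0.597 CPM with SAM and 0.143 and 0.193 CPM with dCas9-VPR. The dCas9-VPR libraries were the lowest of the 8, and both other systems lay above the control. The ratio of means was 2.87 for DREAM and 2.89 for SAM over dCas9-VPR, the largest ratios of any member, and neither pair of groups overlapped. Relative to the control the ratios were 1.66 with DREAM and 1.67 with SAM, and the control mean was 1.73 times that with dCas9-VPR. In a fit with no filter on low values, where the pseudocount of 0.5 is as large as these levels, *OSR1* passed for SAM relative to dCas9-VPR, at 0.55 (adjusted p = 0.0413), and not for DREAM relative to dCas9-VPR, at 0.56 (adjusted p = 0.0755).

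Counted together, none of the 6 members tested passed a 2-fold change on the log2(CPM + 0.5) scale in any comparison. At a fold change above 2 and an FDR below 0.05 (limma), 0 of 6 members were called with DREAM, SAM or dCas9-VPR relative to the control, where 2.55%, 4.34% and 1.1% of the 15122 genes tested were. At an unadjusted p below 0.05 the counts were 3, 3 and 2 of 6. The share of all genes at that level is not given here, so this and later counts at it have no background. With the FDR alone, DREAM had 1 member higher and 1 lower, beside 18.8% and 9.25% of all genes. SAM had 3 members higher and 0 lower, beside 35.7% and 8.89%, and dCas9-VPR had 1 higher and 0 lower, beside 11.0% and 6.68%. The members' median differences were 0.15, 0.44 and 0.13, beside 0.06, 0.16 and 0.06 over all genes. The 3 comparisons share the same 2 control libraries.

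The size of these backgrounds depended on the scaling. With median-of-ratios scaling the median difference of all genes moved from 0.16 to −0.01 for SAM, and all genes past the FDR went from 5398 higher and 1345 lower to 2744 higher and 3190 lower. For DREAM they went from 2837 and 1399 to 2073 and 2163, and for dCas9-VPR from 1656 and 1010 to 1216 and 1346. The members called under that scaling were *SALL2* and *WT1* as higher with SAM (0.58 and 0.41), *SALL2* as higher and *EYA1* as lower with DREAM (0.37 and −0.61) and *SALL2* as higher with dCas9-VPR (0.39).

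**Figure D2:**
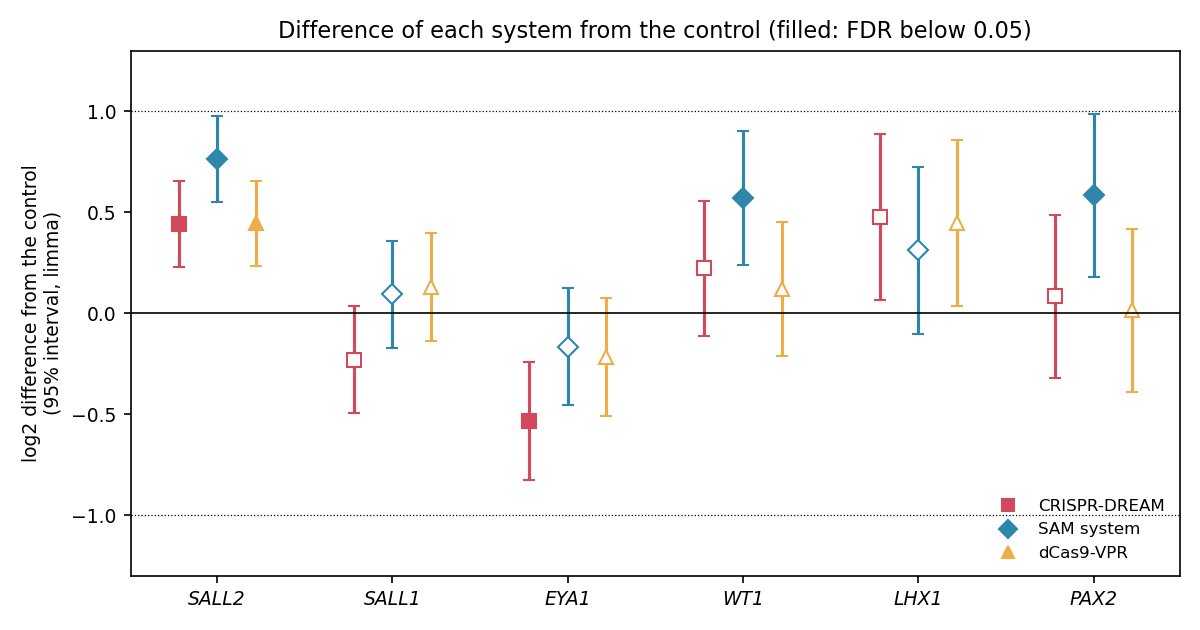
Difference of each system from the control on the log2(CPM + 0.5) scale for the 6 members tested, with 95% intervals from limma, filled where the FDR is below 0.05 and with dotted lines at a fold change of 2. *SALL2* is filled in all 3 systems, *WT1* and *PAX2* in SAM and *EYA1* in DREAM.

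Between the systems, 3 members were higher with SAM than with dCas9-VPR. These were *PAX2* by 0.57 (SE 0.18, adjusted p = 0.0379), *WT1* by 0.45 (SE 0.15, adjusted p = 0.0451) and *SALL2* by 0.32 (SE 0.10, adjusted p = 0.0291), while 23.6% of all genes were called higher and 6.32% lower. All 3 calls were lost with median-of-ratios scaling (adjusted p = 0.0778, 0.113 and 0.116) and when any 1 of the 4 libraries compared was left out (adjusted p from 0.0568 to 0.269). At a fold change above 2 the count was 0 of 6 here too, against 2.31% of all genes, with 3 at an unadjusted p below 0.05. All genes past the FDR went from 3567 higher and 955 lower to 2068 higher and 2425 lower with that scaling.

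Without a replicate block, no member was called between DREAM and either other system. Relative to SAM, 0 of 6 were called by either rule (0.721% and 10.7% of all genes). Past the FDR, all genes were 1382 lower and 241 higher, or 557 and 813 with median-of-ratios scaling. Of the 6 members, 5 were lower at an unadjusted p below 0.05, a level at which the share of all genes is not given. The largest of these was *PAX2* at −0.50 (95% interval −0.91 to −0.10), and *SALL2* was at −0.32 (adjusted p = 0.0565). Relative to dCas9-VPR, 0 of 6 were called by either rule (0.734% and 13.1% of all genes), and *EYA1* (−0.32) and *SALL1* (−0.36) were lower at an unadjusted p below 0.05. *SALL2* differed between DREAM and dCas9-VPR by −0.0028 (95% interval −0.22 to 0.21). Without DREAM library 1, *SALL1* and *SALL2* were called lower than with SAM (−0.47 and −0.48, adjusted p = 0.0297 and 0.0095) and *SALL1* lower than with dCas9-VPR (−0.51, adjusted p = 0.0230). With replicate number as a block, *SALL2* (adjusted p = 0.00183), *EYA1* (adjusted p = 0.0155) and *SALL1* (adjusted p = 0.0241) were lower with DREAM than with SAM, where 30.5% of all genes passed. *SALL1* (adjusted p = 0.0122) and *EYA1* (adjusted p = 0.0351) were then lower than with dCas9-VPR, where 29.7% of all genes passed.

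Transcripts next to the members were read at low levels. *WT1-AS* (chr11:32435518-32458770), which starts inside the *WT1* promoter window and shares 47 bases with the span of *WT1*, stood at 0.223 and 0.359 CPM in control cells, 0.465 and 0.281 with DREAM, 0.627 and 0.811 with SAM and 0.200 and 0.231 CPM with dCas9-VPR. Its SAM libraries were above the other 6, as for *WT1*, and it was too low to test. The strand setting of the counting is not given in the sources used here, so reads of the shared bases may not be told apart. *LHX1-DT*, a divergent transcript 114 bases from *LHX1*, stood at 2.14 and 2.02 CPM in control cells and between 1.57 and 3.11 CPM in the 6 others, and none of its differences passed the threshold. *PAX8-AS1* (chr2:113211421-113276582), antisense to the member without values, reached 0.200 and 0.682 CPM with SAM and was at or below 0.161 CPM in the 6 others, where 1 library was listed at 0.

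The members' paralogs, genes of the same families, were compared per kb of exon. *SALL2* held 76.7% ± 1.34 (SD, n = 2) of the summed *SALL* level in the control and 83.3% ± 0.116, 82.8% ± 0.409 and 80.4% ± 0.812 with DREAM, SAM and dCas9-VPR. *SALL1* held 19.2% ± 1.18 in the control and 12.9% ± 0.0301, 13.0% ± 0.0693 and 16.2% ± 0.633 in the same order. The control libraries lay outside the activator libraries for both shares, which are parts of 1 whole and move against each other. These shares were not tested.

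In the other families a paralog led among the genes measured. The summed levels leave out *PAX4*, *PAX8* and *LHX5*, so the shares of *PAX* and *LHX* genes are not of the whole family. *EYA3*, a broadly expressed family member, held 55.5% to 63.3% of the *EYA* level in the group means, and *EYA1* 10.6% ± 0.0494 in the control, 7.55% ± 0.858 with DREAM, 8.30% ± 1.40 with SAM and 8.02% ± 0.0346 with dCas9-VPR. *PAX3*, a neural crest and muscle factor, held 42.6% to 51.5% of the *PAX* level over the 8 libraries, and *PAX2* 2.30% to 4.13%. *LHX1* held 4.02% to 7.61% of the *LHX* level, and *OSR2* held 94.3% to 98.7% of the 2 *OSR* genes.

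**Figure D3:**
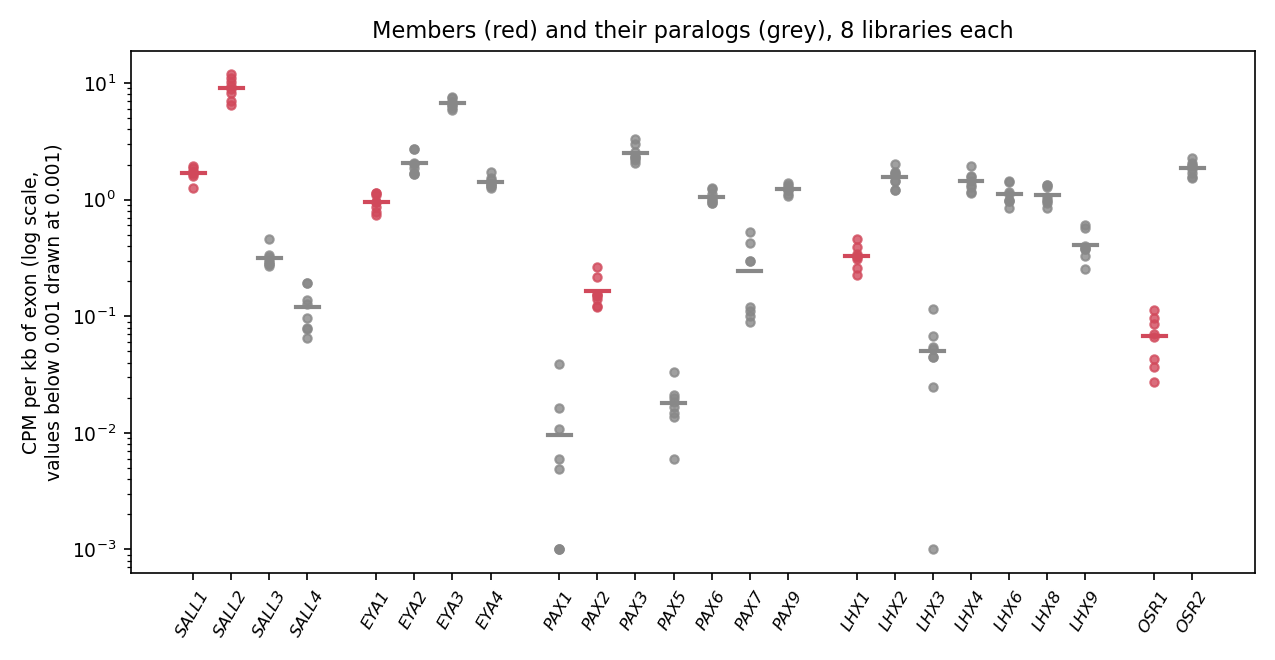
CPM per kb of exon on a log axis for the members (red) and their paralogs (grey), with 1 point per library and a bar at the mean of 8. *SALL2* leads its family at a mean of 9.13 CPM per kb, whereas *EYA1*, *PAX2*, *LHX1* and *OSR1* lie below the leading measured genes of their families.

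Of 20 paralogs listed, 18 were measured and 15 tested. With SAM 7 rose and 1 fell, with DREAM 1 rose, and with dCas9-VPR none was called (limma; 4 at an unadjusted p below 0.05). Of all genes, 35.7% were called higher and 8.89% lower with SAM, 18.8% and 9.25% with DREAM and 11.0% and 6.68% with dCas9-VPR. With median-of-ratios scaling SAM had 5 higher and 1 lower, and DREAM had 1 higher and 1 lower. *PAX7*, a muscle and neural crest factor and the sister gene of *PAX3*, was the only paralog past a 2-fold change, at 0.574 and 0.652 CPM in the control, 1.93 and 1.93 CPM with DREAM, 2.74 and 3.41 CPM with SAM and 0.716 and 0.770 CPM with dCas9-VPR. It rose by 1.13 with DREAM (adjusted p = 0.0009) and by 1.68 with SAM (adjusted p = 0.0001). *EYA3* had differences of 0.01, 0.09 and 0.26, none past the threshold. *PAX6*, an eye and brain factor, fell by 0.29 with SAM (adjusted p = 0.0418), a call lost when any control or SAM library was left out (adjusted p from 0.0519 to 0.233). *EYA2*, named after its values were seen, rose with SAM by 0.59 (adjusted p = 0.0018), and *LHX6* (0.60), *LHX9* (0.82), *SALL4* (0.76), *LHX2* (0.45) and *PAX3* (0.36) were the others that rose, of which the last 3 were each lost in at least 1 fit with a library left out. Another processing setting also ended the calls of *LHX2* (adjusted p up to 0.157) and *PAX3* (up to 0.119) with SAM. *PAX7* passed the filter only through its DREAM and SAM libraries, and *SALL4* only through its 2 SAM libraries (1.11 CPM in each).

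Other regulators of kidney development moved in both directions with DREAM. Of 37 listed, 31 were measured and 25 tested, and 9 fell and 6 rose with DREAM, with a median of −0.16 beside 0.06 over all genes. With SAM 7 rose and 3 fell (median 0.12), and with dCas9-VPR 2 rose and 0 fell (median 0.04). Beside these counts, 18.8% of all genes were higher and 9.25% lower with DREAM, 35.7% and 8.89% with SAM and 11.0% and 6.68% with dCas9-VPR. With median-of-ratios scaling the counts were 12 lower and 5 higher for DREAM, and 8 lower and 6 higher for SAM. Compared directly, 6 of the 25 were lower and 0 higher with DREAM than with SAM, beside 1382 lower and 241 higher of all genes. Relative to dCas9-VPR, 9 were lower and 1 higher with DREAM, beside 788 lower and 1195 higher of all genes. With median-of-ratios scaling 2 were lower and 0 higher with DREAM than with SAM, beside 557 and 813 of all genes. Relative to dCas9-VPR that scaling gave 10 lower and 1 higher with DREAM, beside 1026 and 1046 of all genes. Their summed level was 415 and 397 CPM in the control, 344 and 319 CPM with DREAM, 414 and 395 CPM with SAM and 424 and 421 CPM with dCas9-VPR, lowest in the DREAM libraries. *FOXC1* and *HOXA11* were among the 3 that fell with SAM (*HOXA11* −0.24, lost when any 1 of the control or SAM libraries was left out), and the 2 that rose with dCas9-VPR were *ETV4* (0.61) and *TFCP2L1* (0.47), both lost when either dCas9-VPR library was left out.

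*FOXC1* was the most abundant of these. *FOXC1*, a forkhead factor of the nephric mesenchyme, stood at 80.1 and 75.5 CPM in control cells, 56.9 and 47.7 CPM with DREAM, 67.3 and 52.9 CPM with SAM and 87.5 and 81.3 CPM with dCas9-VPR. It fell by 0.57 with DREAM (adjusted p = 0.0051) and by 0.38 with SAM (adjusted p = 0.0223), the latter call lost without control library 1 (−0.34, adjusted p = 0.0953), control library 2 (−0.42, adjusted p = 0.0559) or SAM library 2 (−0.21, adjusted p = 0.168).

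Further genes of the nephron progenitors were looked at by name after their values were seen. *DACH1*, a transcriptional cofactor, fell by 0.68 with DREAM (adjusted p = 0.0004), from 26.1 and 25.7 CPM to 17.1 and 14.9 CPM, and *HOXA11* by 0.56 (adjusted p = 0.0007), from 31.1 and 30.1 CPM to 20.3 and 21.0 CPM. These DREAM libraries were below both control libraries for each gene, and the calls held when any 1 library was left out. *SIX4* fell by 0.35 (adjusted p = 0.0114) and *HOXD11* by 0.48 (adjusted p = 0.0186), with calls lost without control library 2 for *SIX4* (−0.31, adjusted p = 0.0839) and without control library 1 (−0.39, adjusted p = 0.111) or DREAM library 2 (−0.28, adjusted p = 0.0867) for *HOXD11*. The *HOX11* genes did not move together. *HOXC11* stood at 12.8 and 14.0 CPM in control cells and 12.02 and 13.7 CPM with DREAM, a difference of −0.06 (adjusted p = 0.703), and it rose with SAM by 0.52 (adjusted p = 0.0029), to 18.4 and 20.6 CPM. *CITED1*, a transcriptional coactivator of the progenitors, had a difference of −0.11 with DREAM (95% interval −0.42 to 0.19). *SIX2*, a marker of the self-renewing progenitor, stood at 18.1 and 16.1 CPM in control cells and 16.7 and 18.6 CPM with DREAM, a difference of 0.05 (95% interval −0.16 to 0.25).

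Among the 6 regulators that rose with DREAM, *ETV4* and *TFCP2L1* had the largest differences. *ETV4*, an ETS factor induced by RET signalling in the bud tip, stood at 0.606 and 0.522 CPM in control cells and 1.36 and 1.76 CPM with DREAM, a rise of 0.95 (adjusted p = 0.0036), and it passed the filter only through the activator libraries. *TFCP2L1*, a collecting duct factor, rose by 0.68 with DREAM (adjusted p = 0.0044) and by 0.94 with SAM (adjusted p = 0.0005), from 5.04 and 4.04 CPM to 8.26 and 6.85 CPM and to 9.35 and 8.90 CPM. Both genes were named after their values were seen, and these calls held when any 1 library was left out. *ETV5* (0.60), *SOX8* (0.59) and *LMX1B* (0.40) also rose, and *ETV5* and *LMX1B* were lost in at least 1 such fit. The *LMX1B* call was also lost with another processing setting (adjusted p up to 0.0868).

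**Figure D4:**
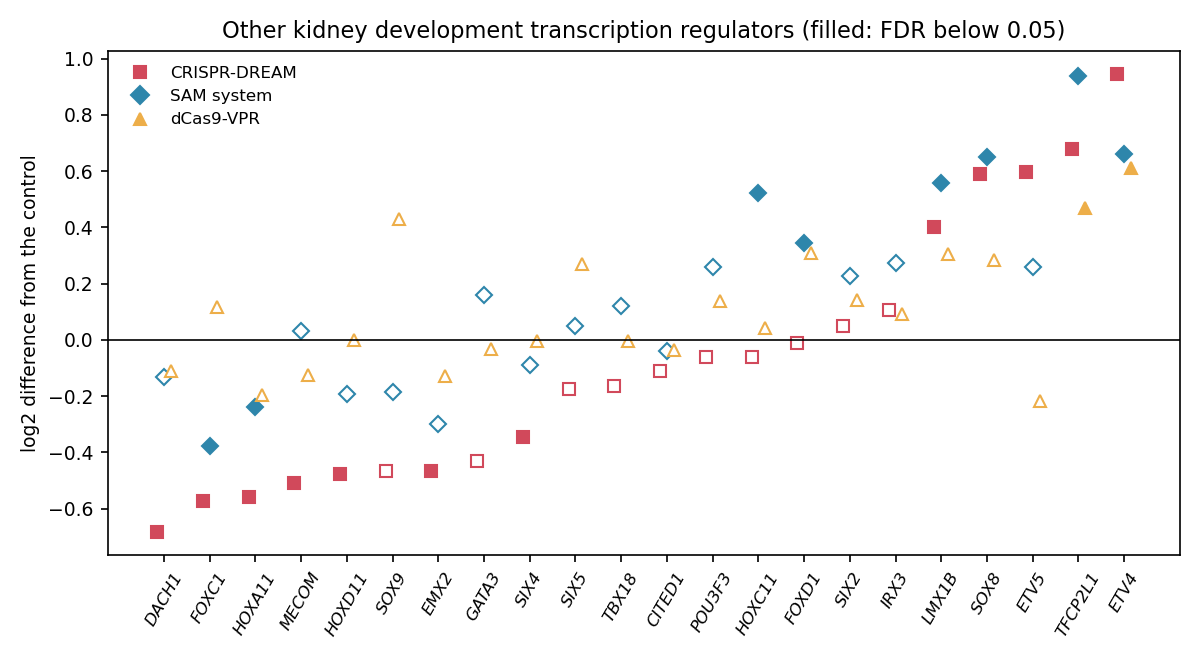
Difference of each system from the control on the log2(CPM + 0.5) scale for 22 of the 25 other kidney development regulators tested, ordered by their value with DREAM and filled where the FDR is below 0.05. With DREAM 7 of those plotted are filled below 0 and 5 above, and with dCas9-VPR 2 are filled above 0.

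Signals and receptors of kidney development also moved in both directions with DREAM and SAM. Over all genes, 18.8% were higher and 9.25% lower with DREAM, 35.7% and 8.89% with SAM and 11.0% and 6.68% with dCas9-VPR. Of 23 listed, 22 were measured and 21 tested, with 2 higher and 5 lower for DREAM, 3 higher and 2 lower for SAM and 3 higher and 0 lower for dCas9-VPR. With median-of-ratios scaling SAM had 2 higher and 7 lower, DREAM 2 higher and 8 lower and dCas9-VPR 3 higher and 1 lower. *WNT9B*, the ureteric bud signal that starts nephron formation, stood at 0.351 and 0.620 CPM in control cells, 1.71 and 1.37 CPM with DREAM, 1.80 and 1.39 CPM with SAM and 0.716 and 0.931 CPM with dCas9-VPR. *WNT9B* passed the filter only through its DREAM and SAM libraries. It rose by 1.06 with DREAM (adjusted p = 0.0044) and by 1.10 with SAM (adjusted p = 0.0022), and its dCas9-VPR difference was 0.43 (adjusted p = 0.170). *WNT11*, a signal of the bud tip, rose by 0.66, 0.76 and 0.41, and *ITGA8*, an integrin of the progenitor mesenchyme, fell by 0.72 with DREAM and by 0.97 with SAM. *ROBO2*, the receptor of SLIT2, fell by 0.87 with DREAM, as did *FGF9* by 0.64, *FGFR2* by 0.50 and *JAG1* by 0.37, while *GFRA1* rose with SAM by 0.38 and *RET* with dCas9-VPR by 0.73. These 8 genes were named after their values were seen, to account for the counts. The calls of *FGF9*, *FGFR2*, *JAG1*, *GFRA1*, *RET* and of *WNT11* with dCas9-VPR were each lost in at least 1 fit with a library left out. Another processing setting also ended those of *GFRA1* (adjusted p up to 0.144) and *JAG1* (up to 0.104). Among the most abundant, *SLIT2*, a repellent signal, had −0.14, −0.28 and −0.04, of which the SAM value passed (adjusted p = 0.0212) and was lost without control library 1 (−0.23, adjusted p = 0.119) or SAM library 2 (−0.17, adjusted p = 0.173). *NOTCH2*, the receptor that patterns the proximal nephron, passed only with dCas9-VPR (0.41, adjusted p = 0.0465), a call lost when any dCas9-VPR or SAM library or control library 2 was left out (adjusted p from 0.0565 to 0.296).

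Of 24 cofactors of the members, 23 were measured and all were tested. The background over all genes was 18.8% higher and 9.25% lower with DREAM, 35.7% and 8.89% with SAM and 11.0% and 6.68% with dCas9-VPR. DREAM had 3 higher and 5 lower, SAM 8 higher and 7 lower and dCas9-VPR 3 higher and 1 lower, and with median-of-ratios scaling SAM had 2 higher and 10 lower, DREAM 2 higher and 9 lower and dCas9-VPR 2 higher and 2 lower. *BASP1*, which encodes the corepressor of WT1, stood at 27.8 and 30.0 CPM in control cells, 12.7 and 14.2 CPM with DREAM, 16.0 and 16.9 CPM with SAM and 19.3 and 19.0 CPM with dCas9-VPR. All 6 activator libraries were below the control. *BASP1* fell by 1.08 (adjusted p = 3e-05), 0.79 (adjusted p = 0.0001) and 0.58 (adjusted p = 0.0029), and no call was lost when 1 library was left out. Named after their values were seen, *SSBP2*, *TLE4* and *TLE1* were the other cofactors that fell with DREAM beside *RBBP4*, by 0.59, 0.52 and 0.29, and *HDAC1*, *LDB1*, which bridges LIM-homeodomain factors such as LHX1, and *MTA1* rose by 0.37, 0.35 and 0.25. With dCas9-VPR, *CHD4* (0.43), *TLE3* (0.29) and *HDAC1* (0.14) rose. Of these calls, *TLE1* and *MTA1* with DREAM and the 3 that rose with dCas9-VPR were each lost in at least 1 fit with a library left out. Another processing setting also ended those of *MTA1* with DREAM (adjusted p up to 0.1) and *HDAC1* with dCas9-VPR (up to 0.25). The most abundant were *RBBP4* and *HDAC2*, subunits of the NuRD complex that SALL1 recruits. *RBBP4* fell by 0.16 with DREAM (adjusted p = 0.0198) and by 0.19 with SAM (adjusted p = 0.0071). *HDAC2* rose by 0.20 with SAM (adjusted p = 0.0102), which was 0.02 with median-of-ratios scaling (adjusted p = 0.802). Leaving out 1 library ended the *RBBP4* call with DREAM for control library 1 (adjusted p = 0.0605), control library 2 (adjusted p = 0.122) and DREAM library 2 (adjusted p = 0.0547), and with SAM for control library 2 (adjusted p = 0.0565). It ended the *HDAC2* call for control library 2 (adjusted p = 0.0937) and SAM libraries 1 (adjusted p = 0.0532) and 2 (adjusted p = 0.0516).

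Markers of mature kidney segments were mostly low. Of 22 listed, 11 were measured and 4 tested, so that the tested ones say little of the list. *SYNPO*, which encodes the podocyte actin-binding protein synaptopodin and is also expressed in neurons, stood at 1.69 and 1.73 CPM in control cells, 9.46 and 8.39 CPM with DREAM, 8.29 and 8.56 CPM with SAM and 3.58 and 3.72 CPM with dCas9-VPR. It rose by 2.09 (adjusted p = 4e-06), 2.01 (adjusted p = 6e-06) and 0.91 (adjusted p = 0.0014), whereas *NPHS1*, a defining podocyte gene, was at or below 0.457 CPM in all 8 libraries. *PODXL*, of podocytes and other cells, rose with SAM by 0.39 (adjusted p = 0.0332) and *LRP2*, of the proximal tubule, fell with DREAM by 0.51 (adjusted p = 0.0095). *PTPRO*, the remaining marker tested, named after its values were seen, stood at 2.23 and 2.18 CPM in control cells and lower in every activator library. Its differences of −0.29 with DREAM (adjusted p = 0.237) and −0.15 with SAM (adjusted p = 0.507) did not pass. The *PODXL* call was lost with median-of-ratios scaling (0.21, adjusted p = 0.177) and without control library 2 (0.25, adjusted p = 0.237), either SAM library or either dCas9-VPR library (adjusted p from 0.0533 to 0.113), and the *LRP2* call without control library 2 (−0.43, adjusted p = 0.0821).

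Markers of other cell types moved beside the members in the same libraries, and their part in the members' differences was not tested. For all lists of such markers the background over all genes was 18.8% higher and 9.25% lower with DREAM. It was 35.7% and 8.89% with SAM and 11.0% and 6.68% with dCas9-VPR. Of 16 neuronal and chromaffin markers 9 were measured and 7 tested, 2 higher with DREAM and 4 higher and 1 lower with SAM, with summed levels of 106 to 110 CPM in the control, 122 to 129 with DREAM, 125 to 137 with SAM and 111 to 122 CPM with dCas9-VPR. Their most abundant genes, *NEFL* and *INA*, encode neurofilament proteins, and *INA* rose with SAM by 0.50 (adjusted p = 0.0013), as did *GAP43*, a growth cone gene, by 1.20 (adjusted p = 0.0004). *NEFL* rose by 0.37 with SAM (adjusted p = 0.0094), which was lost with median-of-ratios scaling (0.19, adjusted p = 0.0934) and without control library 2 (adjusted p = 0.0628) or SAM library 1 (adjusted p = 0.0925). *NEFM*, a further neurofilament gene, rose with DREAM (0.51) and SAM (0.46), as did *NEFL* with DREAM (0.33). Each of these calls was lost in at least 1 fit with a library left out. The *NEFM* call with SAM was also lost with another processing setting (adjusted p up to 0.0984). *TUBB3*, a neuronal tubulin, fell with SAM by 0.63. *SNAP25*, also listed, too low to test and named after its values were seen, stood at 1.12 and 0.783 CPM in control cells. In every activator library *SNAP25* was at or below 0.449 CPM. Of 7 adrenal cortex markers only *NR5A1*, which encodes steroidogenic factor 1, was measured. It rose with SAM by 1.20 (adjusted p = 0.0028), from 0.734 and 0.815 CPM to at least 2.17 CPM in both libraries, and its DREAM difference of 0.81 (adjusted p = 0.0302) was lost without either control library or DREAM library 1 (adjusted p from 0.0958 to 0.154). *NR5A1* was under 1 CPM in the control and dCas9-VPR libraries and passed the filter only through its DREAM and SAM libraries.

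Of 14 stromal, endothelial and blood markers 9 were measured and 6 tested, with 3 higher and 1 lower for DREAM, 4 higher and 0 lower for SAM and 1 higher and 0 lower for dCas9-VPR. Their summed level was 17.7 to 18.6 CPM in the control, 18.7 to 20.0 CPM with DREAM, 27.8 to 27.9 CPM with SAM and 20.3 to 23.3 CPM with dCas9-VPR. *KDR*, an endothelial receptor, rose by 1.46 with DREAM (adjusted p = 0.0003) and by 1.62 with SAM (adjusted p = 0.0001), and it passed the filter only through its DREAM and SAM libraries. *PECAM1* passed the filter only through its 2 SAM libraries (1.03 and 1.17 CPM), and *COL1A1*, a collagen gene, rose with SAM by 0.67 (adjusted p = 0.0011) and with dCas9-VPR by 0.67 (adjusted p = 0.0043), the latter lost without dCas9-VPR library 2 (0.58, adjusted p = 0.0545). *COL1A1* (0.37) and *PECAM1* (0.80) also passed with DREAM, and *PECAM1* (1.46) and *LUM* (0.93) with SAM. The calls of *COL1A1* and *PECAM1* with DREAM and of *LUM* with SAM were lost in at least 1 fit with a library left out. That of *COL1A1* was also lost with another processing setting (adjusted p up to 0.0613). For *PECAM1* with SAM such fits are no check, because the filter was set on all libraries and only the SAM libraries met it. *COL3A1*, another collagen gene, fell with DREAM by 0.93 (adjusted p = 0.0029). The blood genes *PTPRC*, *CD3E* and *LYZ* are not analysed here.

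Genes whose profile over the 8 libraries was most like a member's were found by the root mean square difference of log2(CPM + 0.5) after centring each gene. For *SALL2* these were *SUSD6* (0.034) and *PIAS3* (0.048), for *SALL1* they included *AC020904.2* (0.048), and for *EYA1* *HDAC10* (0.077) and *KIF24* (0.096). For *WT1* they were *LHX6* (0.057) and *DLX6-AS1* (0.067), for *LHX1* *TSPAN18* (0.062) and *ANKRD52* (0.062) and for *PAX2* *ZC2HC1C* (0.060) and *EGFLAM* (0.061). *LHX6*, the profile nearest to *WT1*, is a paralog of *LHX1*. With 8 libraries many genes have near profiles, and the measure says nothing of shared control.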

How the data were processed

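RNA-seq of 8 HEK293T libraries, 2 per group, was analysed. Groups and replicates were taken from the sample labels. The authors aligned reads with STAR (2.7.3a) to hg38, estimated transcript levels with a Bayesian method and deposited them as CPM, each with 0.0001 added. Their own tests used DESeq2 with a fold change above 2 and an FDR below 0.05, and the sources used here do not state which genes were kept in the tables.

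Log2(CPM + 0.5) was fitted across all 4 groups with the trend and robust options of limma 3.58.1 (R 4.3.3), using the 15122 genes that reached 1 CPM in 2 or more libraries. Adjusted p-values are Benjamini-Hochberg values over these genes, and intervals are 95% intervals of the fit. Because the offset pseudocount is added, fold changes of low genes are understated. Whole reads could not be recovered from the CPM values (63.5% to 68.4% of low values were whole within 0.03 read), so no count model was run, and the depth is an estimate from the same step. Nothing in the labels says that replicates came from separate cultures, and p-values measure the spread between these libraries.

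Levels per kb use the union of exons in Gencode 44. Promoter windows come from RefSeq (GRCh38.p14), handled in Python 3.11.15 with pandas 2.3.3. Named genes are the members, *HBG1* and *HBG2*, the members' antisense or divergent genes, the 2 nearest profiles of each tested member and, from each list, the 2 genes with the highest mean CPM and up to 6 genes past a 2-fold change and the FDR. A few further genes were picked with their values in view and are marked so. Some genes that this rule names are not reported here, although list counts include them. The members and the lists were chosen with earlier results of these data known.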

Additional observations from a re-analysis of the deposited data

How the results depend on the processing

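With another scaling, filter or pseudocount, with only the libraries compared, or with replicate number as a block, no member entered in the fit passed both a 2-fold change and the FDR in any of the 6 comparisons, and the same held when each library was left out. Setting aside the fits that left a library out, 234 member differences were recomputed. Of these, 220 kept their direction and side of the FDR threshold, 5 were lost, 6 were gained and 3 changed sign. With 1 library left out, 16 of 288 member differences changed sign. With the filter at 10 CPM, only *SALL1*, *SALL2* and *EYA1* were tested. The members past the FDR were then 1 for SAM relative to the control and 1 relative to dCas9-VPR. Of all genes, 4862 and 3209 of 10183 passed in these comparisons. With median-of-ratios scaling, 0 members passed for SAM relative to dCas9-VPR. Median-of-ratios scaling gave −0.0201 for *PAX2* with dCas9-VPR relative to the control, −0.0719 for *EYA1* with SAM relative to dCas9-VPR, −0.0817 for *SALL1* and −0.00546 for *RBBP7* with SAM relative to the control, and the cause of these changes was not tested. The replicate block gave 3 members for DREAM relative to SAM and 2 relative to dCas9-VPR, where the fit without it gave 0, while the share of all genes past the FDR went from 10.7% to 30.5% and from 13.1% to 29.7%. The replicate numbers only correlated weakly between groups (0.133 to 0.326 over 15122 genes) and nothing in the labels says what they share. With 1 library left out, members past the FDR numbered 0 to 3 for DREAM, 1 to 3 for SAM and 0 to 1 for dCas9-VPR relative to the control, 0 to 2 for DREAM relative to SAM, 0 to 1 relative to dCas9-VPR and 0 to 3 for SAM relative to dCas9-VPR. In the same order, all genes past the FDR numbered 2219 to 4307, 4206 to 7490, 518 to 3615, 16 to 2459, 381 to 2081 and 2033 to 5268. The differences that changed sign when 1 library was left out were past the FDR in none of the fits with all libraries. Relative to the control they ranged from −0.0109 to 0.177 for *PAX2* with DREAM, from −0.0888 to 0.117 for *PAX2* with dCas9-VPR, from −0.365 to 0.0342 for *EYA1* with SAM and from −0.021 to 0.262 for *WT1* with dCas9-VPR. Between SAM and dCas9-VPR they ranged from −0.148 to 0.251 for *EYA1* and from −0.118 to 0.0436 for *SALL1*, and between DREAM and SAM from −0.0608 to 0.389 for *LHX1*. Between DREAM and dCas9-VPR they ranged from −0.0337 to 0.172 for *PAX2*, from −0.197 to 0.253 for *LHX1*, from −0.158 to 0.152 for *SALL2* and from −0.0394 to 0.243 for *WT1*. A group with 1 library left was taken to vary like the others.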
